A study of Mus musculus with 13 samples.

Results

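Immunoglobulin gene transcripts were followed in bulk RNA-seq libraries of gd IELs (gamma delta intraepithelial lymphocytes), T cells that lie between the epithelial cells of the gut, which were sorted from small intestine of WT (wild-type) mice. The members were the rows of the deposited estimated count table whose gene biotype begins with IG_, which covers the constant genes and the variable segments of antibody heavy and light chains. They numbered 111 of the 21084 genes in the table. There were 5 heavy-chain constant genes, 1 kappa and 3 lambda constant genes, 56 heavy-chain variable segments, 43 kappa variable segments and 3 lambda variable segments, and 1 of the heavy segments, Ighv1-73, was marked as a pseudogene.

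The 13 libraries formed 4 groups by antibody and by interferon alpha (IFNa). Mice were given 200 µg of UC7-13D5, a hamster antibody to the gamma delta T cell receptor, or 200 µg of Armenian hamster IgG as its control, into the peritoneum at 48 and 24 hours before cells were isolated; the series' design text has 48 or 24 hours before IFNa or PBS. At 5 hours before isolation they received either 1 µg of IFNa or phosphate buffered saline (PBS) into a vein. The groups were hamster IgG with PBS (IgG-PBS, 3 libraries), hamster IgG with IFNa (IgG-IFNa, 4), UC7-13D5 with PBS (UC7-PBS, 3) and UC7-13D5 with IFNa (UC7-IFNa, 3). Every mouse thus received a foreign antibody protein and an intravenous injection, and no untreated mice were among the groups. The labels call the libraries biological replicates; neither the age of the mice nor the number of mice behind each library is stated by the labels, so p-values measure the spread between these libraries only.

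An antibody is built of paired heavy and light chains, and each chain joins a variable region, which binds antigen, to a constant region, which sets the class. In a B cell the variable region is assembled by DNA rearrangement from 1 of many V segments, so that a B cell and its descendants carry the same segment, while class switching replaces the mu and delta constant genes by a gamma, epsilon or alpha one. The lamina propria of the small intestine is rich in plasma cells that secrete IgA, which is joined by the J chain and carried across the epithelium by the polymeric immunoglobulin receptor. Constant genes can also be transcribed from their own upstream promoters without a rearranged variable region; such transcripts are called germline or sterile transcripts.

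Levels are CPM, the counts scaled to a common library size, after TMM scaling, which evens out composition between libraries, and the word count means the rounded estimated count of a gene in a library. Library totals ran from 19867171 to 26895833 counts. The 12 markers of gamma delta intraepithelial lymphocytes were present in every library: Trdc, the delta constant gene, lay at 159 to 211 CPM and the granzyme gene Gzma at 22200 to 47300 CPM. Summed, these 12 lay at 45000 to 77100 CPM and the 7 alpha beta T cell markers at 1510 to 2730 CPM. The 6 stroma and endothelium markers with values summed to 113 to 174 CPM. UC7-IFNa library 2 stood apart, with the lowest total and Rn18s, a ribosomal RNA gene, at 11400 CPM without TMM scaling against 866 to 3330 CPM in the others. Sex-linked transcripts did not follow the groups evenly. On the same unscaled basis, Xist lay at 204 to 345 CPM in the IgG-PBS libraries and IgG-IFNa libraries 1 and 2 and at no more than 1.08 CPM in the 6 UC7-13D5 libraries, where the summed Y-linked Ddx3y, Uty, Kdm5d and Eif2s3y lay at 132 to 329 CPM. IgG-IFNa libraries 3 and 4 held both kinds, with Xist at 68.3 and 23.4 CPM and the Y-linked sum at 210.0 and 320.0 CPM.

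Several lambda genes are near copies of each other, so the coding sequences of both near-identical pairs are shown first, because they bear on how well reads can be told apart. They come from GENCODE M21 transcripts on GRCm38, were matched by gene identifier, and lie on the minus strand. The first 300 bases of each coding sequence are printed, 5′ to 3′. Capitals mark the bases of the second of each pair that differ from the first. The coding parts span, for Iglc2, chr16:19198539-19198853, for Iglc3 chr16:19065368-19065681, for Iglv1 chr16:19085017-19085460 and for Iglv2 chr16:19260401-19260844.
Iglc2: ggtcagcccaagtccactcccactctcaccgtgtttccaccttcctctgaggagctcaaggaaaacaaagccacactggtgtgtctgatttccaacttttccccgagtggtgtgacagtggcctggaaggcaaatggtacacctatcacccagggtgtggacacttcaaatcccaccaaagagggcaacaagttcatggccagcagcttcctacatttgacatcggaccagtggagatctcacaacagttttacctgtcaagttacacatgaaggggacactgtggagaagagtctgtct
Iglc3: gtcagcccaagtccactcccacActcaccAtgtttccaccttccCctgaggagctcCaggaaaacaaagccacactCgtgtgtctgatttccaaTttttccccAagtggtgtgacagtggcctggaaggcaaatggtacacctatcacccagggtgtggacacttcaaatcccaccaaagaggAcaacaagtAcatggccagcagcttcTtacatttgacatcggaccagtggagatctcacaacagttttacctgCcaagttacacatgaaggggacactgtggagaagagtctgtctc
Iglv1: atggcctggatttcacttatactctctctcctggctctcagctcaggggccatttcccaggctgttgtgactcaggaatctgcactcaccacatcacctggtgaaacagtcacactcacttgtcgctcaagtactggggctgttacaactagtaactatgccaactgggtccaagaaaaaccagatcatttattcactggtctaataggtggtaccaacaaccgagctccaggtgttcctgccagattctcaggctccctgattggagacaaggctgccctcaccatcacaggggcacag
Iglv2: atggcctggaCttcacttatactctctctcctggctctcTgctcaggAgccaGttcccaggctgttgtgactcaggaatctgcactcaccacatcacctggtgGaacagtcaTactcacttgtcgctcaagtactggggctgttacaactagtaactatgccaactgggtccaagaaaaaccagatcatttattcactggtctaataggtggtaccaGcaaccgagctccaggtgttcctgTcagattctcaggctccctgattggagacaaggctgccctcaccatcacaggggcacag
All 11 differences of Iglc3 and 8 of the 11 of Iglv2 fall in these bases. Over the whole coding sequence Iglc3 differed from Iglc2 at 11 of 314 aligned bases (96.5% identity) and Iglv2 from Iglv1 at 11 of 351 (96.9% identity). Iglc1 was further off, at 73.2% identity to Iglc2 and 73.9% to Iglc3, and Iglv3 shared 55.6% with Iglv1. Counts of the near copies are therefore uncertain where a read lies in the coding part and covers none of the bases that differ. Over whole transcripts, 10.7% of the stretches of 50 bases of Iglc3 and 7.7% of those of Iglc2 were shared with another immunoglobulin gene. For Iglv1 and Iglv2 the shares were 22.2% and 21.1%. The constant genes Ighm, Igha, Ighd, Igkc and Iglc1 shared no stretch of 50 bases with another immunoglobulin gene in this annotation, whereas 92 of the 102 variable segments did.

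The summed immunoglobulin level was 515, 392 and 553 CPM in the IgG-PBS libraries and 526, 559, 535 and 594 CPM in the IgG-IFNa libraries. It was 396, 431 and 470 CPM in the UC7-PBS libraries and 548, 991 and 495 CPM in the UC7-IFNa libraries. The groups overlapped after IgG and did not overlap after UC7-13D5, and UC7-IFNa library 2 lay far above every other library. As a share of all counts the members made up 0.0397% to 0.0859%. Fewer antibody-expressing cells and less antibody RNA per cell cannot be told apart in bulk RNA, whichever cells the transcripts came from.

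Heavy-chain constant genes supplied most of these counts, 77.4% to 92.7% in each library. Ighm, the constant gene of IgM, had the highest mean level over the 13 libraries (266 CPM), followed by Igha, the constant gene of IgA (190.0 CPM), Igkc, the kappa constant gene (36.8 CPM), and Ighd, the constant gene of IgD (9.17 CPM). Divided by the exon length of each gene in GENCODE M21, the mean levels were 141 ± 30.1 CPM per kilobase for Ighm, 71.1 ± 30.8 for Igha, 69.1 ± 51.0 for Igkc and 4.83 ± 2.7 for Ighd (SD, n = 13). On that scale Igha and Igkc differed by less than their spread over libraries. Trdc had 48.7 ± 4.34 CPM per kilobase and Cd3e, a chain of the T cell receptor complex, 264 ± 57.8 (SD, n = 13).

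In mm39 coordinates as deposited, the heavy constant genes lay on chromosome 12, with Igha at chr12:113218450-113223857, Ighd at chr12:113370224-113379945 and Ighm at chr12:113382178-113386351. Igkc lay at chr6:70703419-70703951. The gamma genes in the table, Ighg2b and Ighg3, which encode IgG2b and IgG3 constant regions, had 28 and 41 counts over all 13 libraries. Their highest counts in a library were 15 for Ighg2b, in UC7-IFNa library 3, and 9 for Ighg3, in UC7-IFNa library 1. Other gamma genes and the epsilon gene were not analysed here.

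Across the study's comparisons, 41 of the 111 members passed the filter on low counts and were tested: 7 constant genes, 17 heavy, 16 kappa and 1 lambda variable segment. The other 70 were too low or too scattered and are described by counts. A member that passes only through the group where it is high had to differ, so the counts below describe these 41 and not all members.

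IFNa against PBS was the first contrast, which addresses the response of these cells to type I interferon. Igha was the immunoglobulin gene that moved with it. Its level was 123, 112 and 140 CPM in the IgG-PBS libraries and 232, 208, 225 and 267 CPM in the IgG-IFNa libraries. After UC7-13D5 it was 117, 133 and 124 CPM with PBS and 204, 403 and 180 CPM with IFNa. Every IFNa library thus lay above every PBS library under either antibody, and the lowest IFNa value (180 CPM) was above the highest PBS value (140 CPM).

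With PBS the mean Igha level was 125 ± 14.1 CPM after IgG (SD, n = 3) and 125 ± 8.28 CPM after UC7-13D5 (SD, n = 3). With IFNa it was 233 ± 24.8 CPM (SD, n = 4) and 262 ± 122 CPM (SD, n = 3). The log2 difference between IFNa and PBS was 0.90 (SE 0.23, edgeR adjusted p = 0.0874) after IgG and 1.07 (SE 0.24, edgeR adjusted p = 0.0924) after UC7-13D5, so neither arm alone passed the threshold of 0.05. Averaged over both antibodies, a contrast added after the data were seen, Igha rose by 0.99 (SE 0.16, edgeR adjusted p = 0.0041). The difference between the arms, tested as an interaction, was 0.17 (SE 0.32, edgeR adjusted p = 1.0), with a 95% interval from -0.46 to 0.81. Without UC7-IFNa library 2 the value after UC7-13D5 was 0.62 (edgeR adjusted p = 0.0522), the value after IgG kept its size and passed the test (edgeR adjusted p = 0.0006), and the averaged value was 0.76 (edgeR adjusted p = 8.35e-05). Without IgG-IFNa libraries 3 and 4 the averaged value was 0.94 (edgeR adjusted p = 0.0328). The value after IgG was then 0.82 and did not pass the test (edgeR adjusted p = 0.577). IgG-IFNa libraries 3 and 4 had Y-linked sums of 210.0 and 320.0 CPM, against 0.206 to 0.31 CPM in the IgG-PBS libraries. The part of this sex-linked split in the Igha result was not tested.

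**Figure D1:**
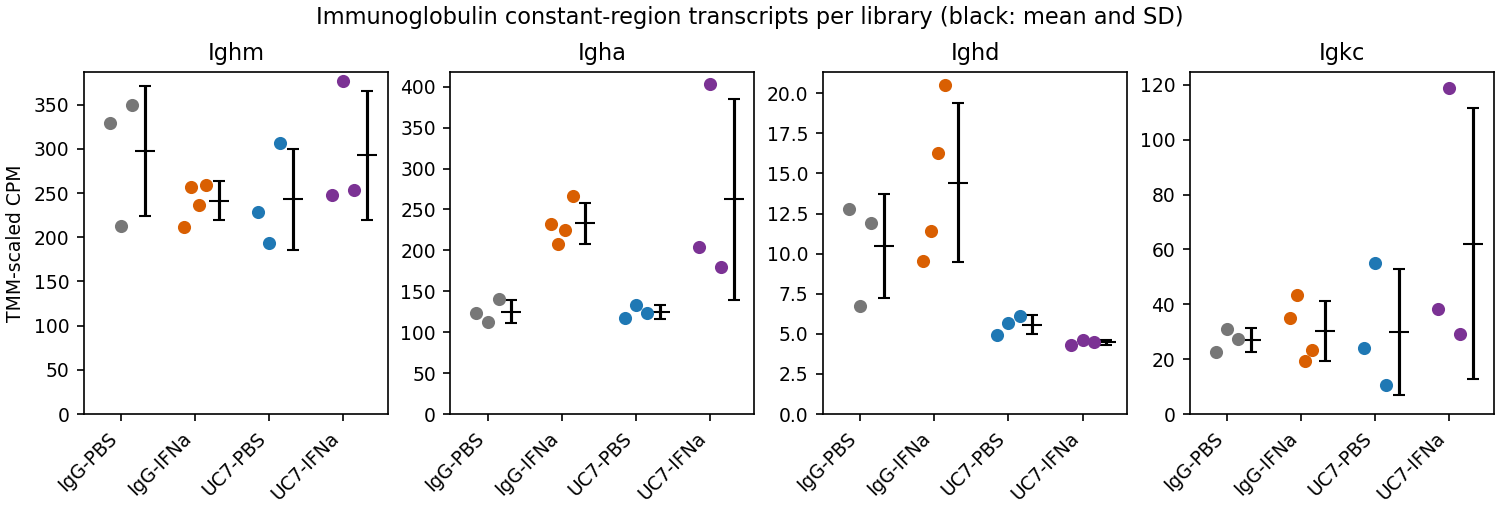
Level of 4 constant genes in each library, in TMM-scaled CPM on linear axes that start at 0, with 1 point per library and 1 colour per group; the black mark and bar beside each group are its mean and SD (n = 3, 4, 3 and 3). The Igha points with IFNa lie at 180 CPM or above and those with PBS at 140 CPM or below, the Ighm points of the groups overlap, the Ighd points are lowest in the UC7-13D5 groups, and UC7-IFNa library 2 is the highest Igkc point at 119 CPM.

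Ighm did not pass the test in any contrast. Its level was 329, 213 and 350 CPM in IgG-PBS, 212, 257, 237 and 259 CPM in IgG-IFNa, 228, 194 and 306 CPM in UC7-PBS, and 248, 377 and 253 CPM in UC7-IFNa. The groups overlapped throughout. Averaged over antibodies the log2 difference between IFNa and PBS was -0.02 (SE 0.15, edgeR adjusted p = 0.981), with a 95% interval from -0.31 to 0.28. The counts of Igha per 100 counts of Ighm, a ratio within a library that scaling does not touch, were 37.5 to 68.7 in the 6 PBS libraries and 71.4 to 110.0 in the 7 IFNa libraries. Igha made up 26.5% to 40.0% of the heavy constant counts with PBS and 41.1% to 51.4% with IFNa. The highest PBS share, in UC7-PBS library 2, had a 95% Clopper-Pearson interval from 39.0% to 41.1%, and the lowest IFNa share, in UC7-IFNa library 3, one from 40.2% to 42.1%; such intervals cover counting error only, and these overlap.

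IFNa against PBS gave no call among the 41 members after IgG (edgeR), where 0.827% of all 15835 genes were called. There were 8 members at an unadjusted p under 0.05 (19.5%, against 10.9% of all genes), and DESeq2 called 1, Igha. After UC7-13D5 the edgeR count was again 0, where 0.36% of all genes were called, with 10 members at an unadjusted p under 0.05 (24.4%, against 7.59%), and DESeq2 called 2, Igha and Ighv9-3. Ighv9-3 had 22 and 13 counts in UC7-PBS libraries 1 and 2, none in UC7-PBS library 3, and none in any UC7-IFNa library. The groups did not overlap for 2 members after IgG (4.88%, against 14.0% of all genes) and for 4 after UC7-13D5 (9.76%, against 12.0%). Averaged over antibodies 1 member was called higher, Igha, and none lower, where 1.99% of all genes were called in either direction and 1.57% higher.

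The median log2 difference of the 41 members was 0.23 after IgG and 1.05 after UC7-13D5, against -0.01 and 0.02 over all genes tested. Of the 41, 23 were higher with IFNa after IgG and 27 after UC7-13D5. The library with the highest level of many members, UC7-IFNa 2, is in the second of these contrasts. The 2 members beside Igha with the smallest unadjusted p after IgG, Iglc3 and Ighv1-72, had log2 differences of -4.13 (SE 1.39) and 4.17 (SE 1.59), edgeR adjusted p = 0.24 and 0.331. Within these groups both followed 1 or 2 libraries: 112 of the Iglc3 counts were in IgG-PBS library 1, and 79 and 42 of the Ighv1-72 counts in IgG-IFNa libraries 1 and 3.

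Markers of some other cell types moved with IFNa too. In the averaged contrast the tests called 2 of the 10 myeloid markers higher, Fcgr1, which encodes a high-affinity receptor for IgG, and C1qc, a chain of complement C1q, and 1 of the 11 secretory epithelium markers, Zg16, a goblet cell lectin. None of the 12 absorptive enterocyte markers was called in any contrast, and their median log2 difference was -0.03 in this one. The median was 0.85 for the myeloid markers and 0.69 for the secretory ones, against 0.005 over all genes tested. For the myeloid list it was 0.77 after IgG and 1.03 after UC7-13D5, and for the secretory list 1.56 and 0.135. The summed myeloid markers lay at 130.0 to 136 CPM in IgG-PBS, 113 to 176 in IgG-IFNa, 156 to 215 in UC7-PBS and 142 to 174 in UC7-IFNa. Summed secretory markers lay at 92.8 to 649, 675 to 1330, 932 to 2230 and 392 to 1350 CPM in the same order. After IgG the IFNa libraries lay above the PBS libraries in this sum, and after UC7-13D5 the groups overlapped. The part of the myeloid and secretory markers in the Igha result was not tested. Of the plasma cell markers 13 were tested and of the 15 B cell markers only 5, and none of these was called in any contrast.

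UC7-13D5 against IgG addresses what binding of the gamma delta receptor changed, and here the member that moved was Ighd. Its level was 12.8, 6.74 and 11.9 CPM in IgG-PBS and 9.53, 11.4, 16.3 and 20.5 CPM in IgG-IFNa. After UC7-13D5 it was 4.93, 5.68 and 6.10 CPM with PBS and 4.29, 4.59 and 4.51 CPM with IFNa. All 6 UC7-13D5 libraries lay below all 7 IgG libraries, although the gap between 6.10 and 6.74 CPM was small.

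With IFNa the log2 difference of Ighd between UC7-13D5 and IgG was -1.69 (SE 0.29, edgeR adjusted p = 0.0439), and with PBS it was -0.91 (SE 0.29, edgeR adjusted p = 0.55). Averaged over IFNa and PBS, a contrast added after the data were seen, Ighd fell by 1.30 on the log2 scale (SE 0.20, edgeR adjusted p = 0.00821). The interaction was -0.78 (SE 0.40, edgeR adjusted p = 1.0). The call with IFNa was lost in 9 of the 13 fits that left out 1 library: IgG-PBS 3, IgG-IFNa 2, 3 or 4, UC7-PBS 1 or 2, or UC7-IFNa 1, 2 or 3. In these 9 the log2 difference was -1.79 to -1.47 and the edgeR adjusted p 0.0542 to 0.231, so the size stayed close to that with all libraries. The averaged value passed in all 13 of these fits.

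The 2 highest Ighd libraries, IgG-IFNa 3 and 4, were the IgG libraries with a Y-linked sum of 210.0 CPM or more. Without both, the log2 difference with IFNa was -1.23 (edgeR adjusted p = 0.582) and the averaged one -1.07 (edgeR adjusted p = 0.055). With PBS, all IgG libraries held Xist and no UC7-13D5 library held more than 1.08 CPM of it, so the antibody and the sex-linked split cannot be told apart there. In the fits without IgG-IFNa libraries 3 and 4 they cannot be told apart either. The IgG libraries left in those fits held Xist at 204 CPM or more. The averaged contrast takes in the PBS libraries, so it carries this limit too. Ighm and Igha did not show the difference seen for Ighd. Averaged over IFNa and PBS, the log2 difference between UC7-13D5 and IgG was -0.01 for Ighm (SE 0.15, edgeR adjusted p = 0.994) and 0.09 for Igha (SE 0.16, edgeR adjusted p = 0.92). In the same averaged contrast Zg16 was called higher, by 1.48 on the log2 scale (SE 0.30, edgeR adjusted p = 0.0302), as 1 of the 11 secretory epithelium markers, whose median log2 difference was 0.91, and 1.92 with PBS alone. The part of these markers in the Ighd result was not tested.

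UC7-13D5 against IgG with PBS gave 0 calls among the 41 members by edgeR, where 0.00632% of all genes were called. There were 6 members at an unadjusted p under 0.05 (14.6%, against 5.0%), and DESeq2 called 0. With IFNa edgeR called 1, Ighd, lower, where 0.0758% of all genes were called and 0.0379% lower, and 11 had an unadjusted p under 0.05 (26.8%, against 7.19%). DESeq2 called 2, Ighd and Ighv9-3, and the latter had 143 of its counts in IgG-IFNa library 3. The groups did not overlap for 3 members with PBS (7.32%, against 12.4% of all genes) and 4 with IFNa (9.76%, against 6.78%). The averaged contrast called 1, Ighd, lower, where 0.657% of all genes were called and 0.107% lower.

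The interaction of antibody and IFNa, which asks whether UC7-13D5 altered the IFNa response, gave 0 calls among the members by edgeR and 0 by DESeq2, and edgeR called 0.0% of all genes. There were 8 members at an unadjusted p under 0.05 (19.5%, against 3.17%). For Ighm the interaction was 0.57 (SE 0.30) and for Igkc 0.89 (SE 0.78), both with an edgeR adjusted p = 1.0. The 4 comparisons of single groups share libraries, so their counts are not independent.

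The kappa constant gene Igkc did not pass the test in any contrast and spread widely in 2 groups. It lay at 22.5, 30.9 and 27.5 CPM in IgG-PBS, 34.9, 43.4, 19.5 and 23.2 CPM in IgG-IFNa, 23.9, 55.1 and 10.6 CPM in UC7-PBS, and 38.4, 119 and 29.1 CPM in UC7-IFNa. All groups overlapped, and in UC7-PBS and UC7-IFNa the highest library was far above the lowest. The largest log2 difference was that of IFNa against PBS after UC7-13D5, 1.05 (SE 0.57, edgeR adjusted p = 0.714), with a 95% interval from -0.07 to 2.18.

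Jchain, the gene of the J chain that joins IgA and IgM into polymers, is no member and moved with Igkc over the libraries. Its level was 11.2, 9.15 and 14.2 CPM in IgG-PBS, 21.9, 22.1, 15.4 and 8.73 CPM in IgG-IFNa, 12.3, 20.1 and 9.93 CPM in UC7-PBS, and 17.0, 49.0 and 11.3 CPM in UC7-IFNa. The log2 levels of Igkc and Jchain had a Pearson r of 0.832 over the 13 libraries (permutation p = 0.00073, Benjamini-Hochberg adjusted 0.00292) and a Spearman rho of 0.72 (permutation p = 0.0072, adjusted 0.0288). Without UC7-IFNa library 2 and IgG-IFNa library 4, the libraries farthest from the median of Jchain, r was 0.662, and after the group means were removed it was 0.821.

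Ighm and Jchain had r = 0.213 (permutation p = 0.493, adjusted 0.493) and rho = -0.077 (permutation p = 0.808, adjusted 0.808), and without the same 2 libraries r was -0.353. For Igha, whose levels fall into PBS and IFNa libraries, r with Jchain was 0.641 in the 7 IFNa libraries (exact permutation p = 0.137, adjusted 0.183) and 0.731 in the 6 PBS libraries (exact permutation p = 0.0903, adjusted 0.181). The rho values were 0.286 (exact permutation p = 0.556, adjusted 0.741) and 0.714 (exact permutation p = 0.136, adjusted 0.272). Without the 2 libraries farthest from the median of Jchain, r was 0.711 and 0.606. These were the 4 relations computed, and a difference between them was not tested.

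**Figure D2:**
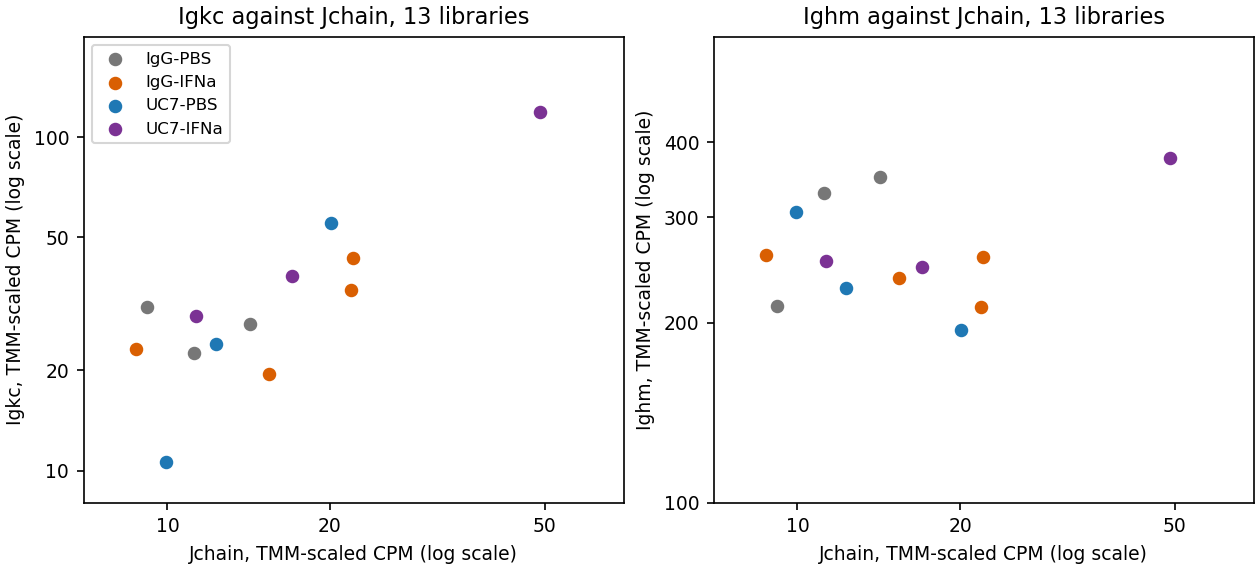
Level of Igkc (left) and Ighm (right) against that of Jchain in the 13 libraries, in TMM-scaled CPM on log axes, with 1 point per library and 1 colour per group. Igkc points follow Jchain (Pearson r = 0.832), with UC7-IFNa library 2 at the upper right, and Ighm points do not line up (r = 0.213).

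Lambda transcripts were carried by a few libraries. The summed lambda constant counts were 126, 28 and 68 in IgG-PBS, 56, 25, 251 and 24 in IgG-IFNa, 6, 36 and 205 in UC7-PBS, and 339, 26 and 46 in UC7-IFNa. The kappa share of light-chain constant counts was accordingly low in UC7-PBS library 3 (57.6%, 95% Clopper-Pearson interval 53.1% to 62.1%), IgG-IFNa library 3 (66.3%, 62.8% to 69.7%) and UC7-IFNa library 1 (74.2%, 71.8% to 76.6%), and 82.8% to 98.9% in the other 10. These 3 libraries belong to 3 different groups.

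Which lambda genes were read also differed by library. In the mouse lambda locus Iglv2 and Iglv3 lie upstream of Iglc2, and Iglv1 upstream of Iglc3 and Iglc1, and segments usually join to the constant genes of their own cluster. IgG-IFNa library 3 had 124 counts of Iglv3 and 224 of Iglc2, and UC7-PBS library 3 had 59 of Iglv3 and 72 of Iglc2. Iglv3 had 1 count in the remaining libraries together. Iglv2 had 73 counts in UC7-IFNa library 1, where Iglc2 had 161, and 4 in UC7-IFNa library 2. Outside those 3 libraries Iglc2 had 3 to 21 counts.

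Iglv1 was highest in UC7-IFNa library 1 (160 counts) and UC7-PBS library 3 (137), which were also the 2 highest libraries for Iglc1 (111 and 128 counts). IgG-PBS library 1, next in Iglv1 with 76 counts, had 5 counts of Iglc1 and 112 of Iglc3, the highest Iglc3 count of any library. Within the coding part, the marked bases of Iglc3 above are those by which such reads are told from Iglc2, which had 9 counts in IgG-PBS library 1. In mm39 as deposited Iglc1 lay at chr16:18880368-18880822, Iglc3 at chr16:18883980-18884432, Iglv1 at chr16:18903767-18904251, Iglc2 at chr16:19017146-19019102, Iglv3 at chr16:19059957-19060441 and Iglv2 at chr16:19079151-19079610. No lambda constant gene passed the edgeR test in any contrast.

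**Figure D3:**
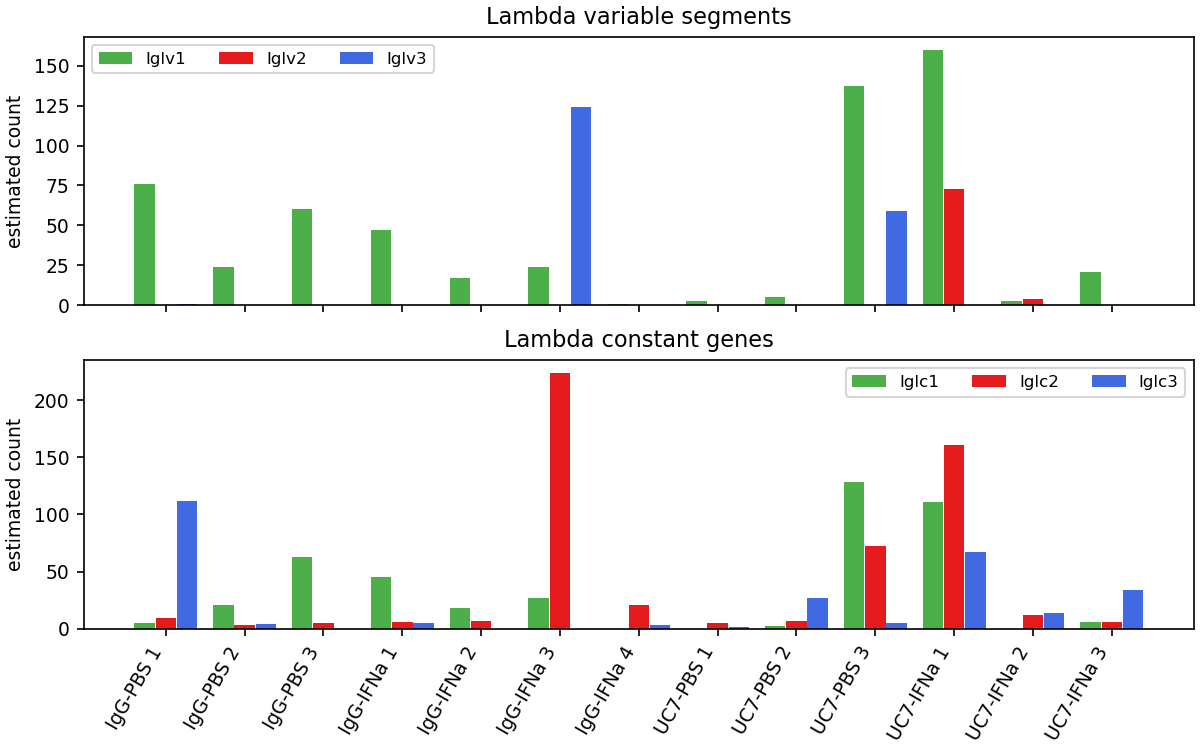
Estimated counts of the 3 lambda variable segments (top) and the 3 lambda constant genes (bottom) in each library, as bars from 0 on linear axes with 1 colour per gene. The Iglv3 bars of IgG-IFNa library 3 (124) and UC7-PBS library 3 (59) and the Iglv2 bar of UC7-IFNa library 1 (73) stand in the libraries with the highest Iglc2 bars, while IgG-PBS library 1 has the highest Iglc3 bar (112).

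Heavy-chain variable segments were read far less, relative to their constant genes, than kappa variable segments were relative to Igkc. The summed heavy variable counts were 1.05 to 5.02 per 100 heavy constant counts, and the summed kappa variable counts 38.1 to 58.0 per 100 Igkc counts. Summed per kilobase of exon, the heavy segments came to 5.95% to 29.9% of the heavy constant genes and the kappa segments to 54.0% to 83.5% of Igkc. The ranges did not overlap on either scale, in all 13 libraries. The sums cover the segments in the table only, whose lowest total was 10 counts, and reads that fit several segments may be lost from them; how the authors treated such reads is not stated in the sources used here.

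The ratio differed by library as well. Heavy variable counts per 100 heavy constant counts were lowest in UC7-PBS library 3 (1.05) and highest in UC7-IFNa library 2 (5.02) and UC7-PBS library 2 (4.90). Those last 2 libraries also had the highest Igkc levels, and UC7-PBS library 3 the lowest. The summed heavy variable level was 9.79, 9.51 and 8.12 CPM in IgG-PBS and 16.2, 15.8, 13.4 and 12.0 CPM in IgG-IFNa, which did not overlap. After UC7-13D5 it was 9.46, 16.3 and 4.59 CPM with PBS and 15.1, 39.4 and 10.8 CPM with IFNa, which did.

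**Figure D4:**
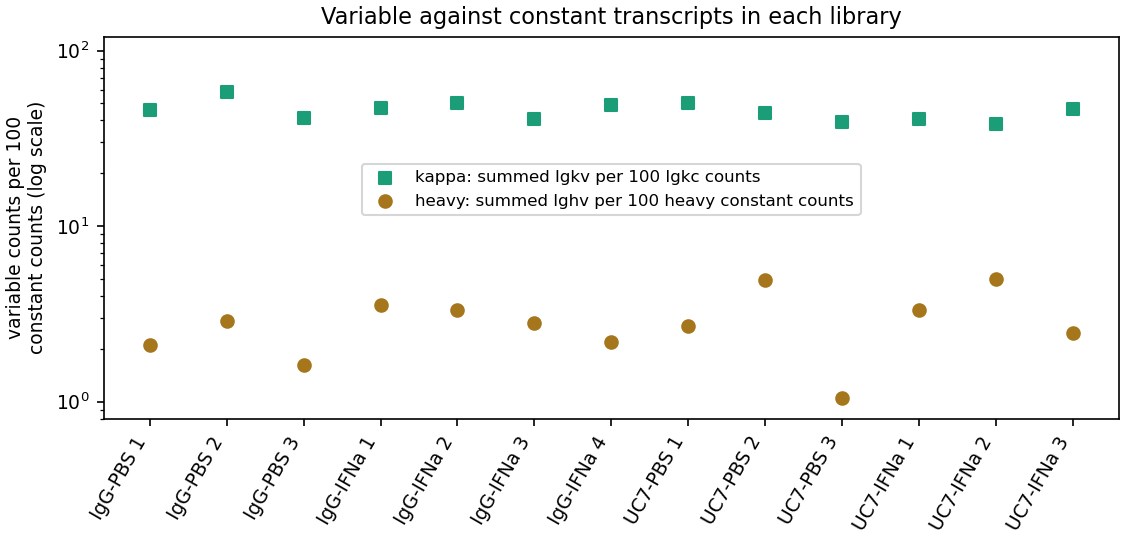
Summed variable counts per 100 constant counts in each library on a log axis, with squares for kappa segments against Igkc and circles for heavy segments against the heavy constant genes. The squares lie between 38.1 and 58.0 and the circles between 1.05 and 5.02, with no overlap between the kinds.

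The segments read differed between libraries, though the sets overlapped. Of the 102 variable segments, 8 reached 10 counts in no library and 40 in 1 library, and the median segment did so in 2. In 66 segments 1 library held 50% or more of all counts, and the median share of the top library was 64.3%. Ighv5-16 (74 counts, IgG-IFNa library 1) and Igkv4-53 (92 counts, UC7-PBS library 1) were read in a single library. They were the highest of 11 such segments and were picked for that after their values were seen.

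The heavy segment with the most counts was Ighv5-9, Ighv1-52 and Ighv6-6 in IgG-PBS libraries 1, 2 and 3. It was Ighv1-72, Ighv5-17, Ighv9-3 and Ighv1-82 in the IgG-IFNa libraries, Ighv1-54, Ighv1-55 and Ighv3-6 in the UC7-PBS libraries, and Ighv3-6, Ighv5-9 and Ighv1-64 in the UC7-IFNa libraries. The top kappa segment was Igkv14-111, Igkv6-15 and Igkv19-93 in IgG-PBS, Igkv6-23, Igkv14-111, Igkv9-120 and Igkv1-117 in IgG-IFNa, Igkv4-53, Igkv8-27 and Igkv14-111 in UC7-PBS, and Igkv19-93, Igkv1-110 and Igkv6-15 in UC7-IFNa. No group had the same top heavy or kappa segment in 2 of its libraries.

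The top segment took 16.9% to 45.7% of the heavy variable counts and 16.3% to 54.5% of the kappa variable counts of a library. The most uneven libraries were IgG-IFNa 3 and 4. In library 3, Ighv9-3 held 42.1% of the heavy variable counts (143 counts, 95% Clopper-Pearson interval 36.8% to 47.5%) and Igkv9-120 held 54.5% of the kappa ones (110 counts, 47.3% to 61.5%). In library 4, Ighv1-82 held 45.7% (143 counts, 40.1% to 51.4%) and Igkv1-117 held 40.1% (119 counts, 34.4% to 45.9%). These libraries had 5 and 6 heavy segments at 10 counts or more, against 3 to 16 in the others. Reads are not independent molecules here, so the intervals cover counting error only.

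Of the heavy segments with the highest mean levels, Ighv1-82 had a mean of 0.89 CPM and was above 0 in 12 of 13 libraries. Ighv5-9 (0.803 CPM) rested on IgG-PBS library 1 with 67 counts and UC7-IFNa library 2 with 135, and had 3 counts elsewhere. Ighv1-72 (0.685 CPM), Ighv3-6 (0.676 CPM), Ighv14-2 (0.673 CPM) and Ighv9-3 (0.591 CPM) each reached 10 counts in 4 or 5 libraries. Ighv1-72 shares 92.5% of its stretches of 50 bases with another immunoglobulin gene, so its count is uncertain. By family, Ighv1 segments, the largest family here with 32 members, held 55.6% of all heavy variable counts and Ighv5 held 14.3%.

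Among kappa segments Igkv14-111 was read most evenly. It had 55, 106 and 43 counts in IgG-PBS, 22, 102, 21 and 27 in IgG-IFNa, 23, 40 and 27 in UC7-PBS, and 14, 74 and 9 in UC7-IFNa, which is 10 counts or more in 12 libraries. It shares no stretch of 50 bases with another immunoglobulin gene, lay at chr6:68233373-68233854 in mm39 as deposited, and held 11.3% of all kappa variable counts. Ighv1-23 was the only other segment with at least 3 counts in all 13 libraries, and reached 10 in 10 of them; its largest library held 13.1% of its counts. It was picked out after its values were seen.

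The other kappa segments of high mean level were Igkv1-110 (1.35 CPM), Igkv6-15 (1.22), Igkv19-93 (0.798), Igkv10-96 (0.684) and Igkv10-94 (0.644), each at 10 counts in 4 to 7 libraries. Igkv1-110 had 156 of its counts in UC7-IFNa library 2 and 76 in IgG-IFNa library 4. Igkv6-15 had 133 in IgG-PBS library 2, 94 in UC7-IFNa library 3 and 81 in UC7-IFNa library 1. No kappa family held more than 14.8% of the kappa variable counts, the share of the 12 Igkv4 segments.

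**Figure D5:**
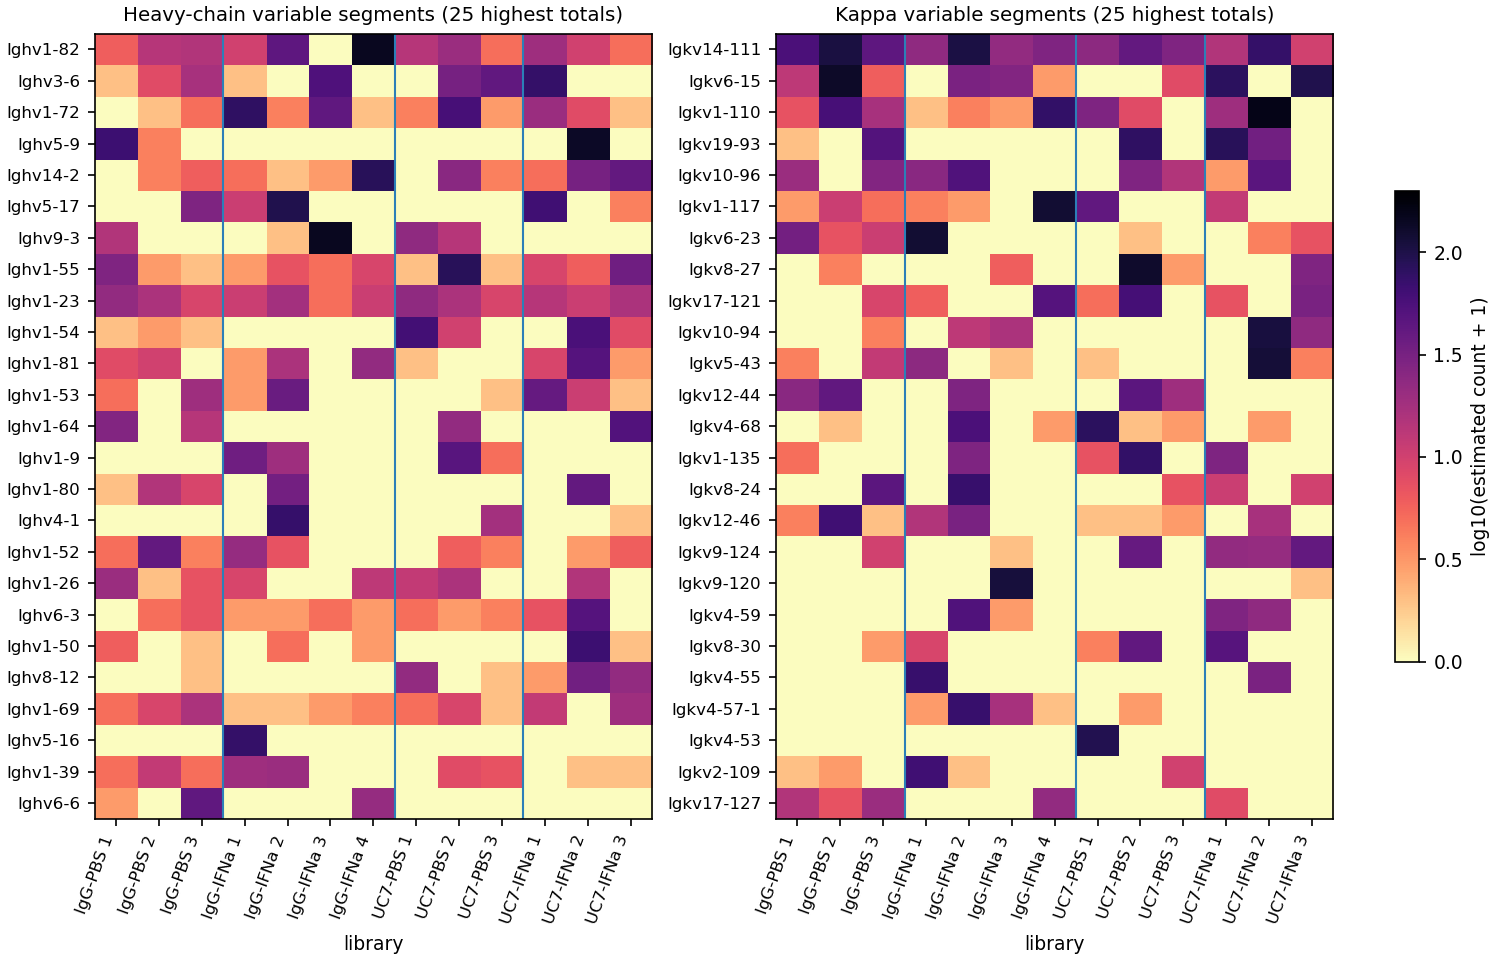
Estimated counts of the 25 heavy (left) and 25 kappa (right) variable segments with the highest totals, as log10(count + 1) by colour, with segments in rows and the 13 libraries in columns; blue lines part the 4 groups. Most rows are dark in a few libraries only and no block of rows follows a group, while Igkv14-111 and Ighv1-23 are coloured in every column.

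B cell markers ranged from near 0 to levels above that of Igkc. Cd79a, a signalling chain of the B cell receptor, had 0 to 22 counts per library, with 0 in 2 libraries and 22 in UC7-IFNa library 2. Its partner Cd79b lay at 52.4 to 116 CPM. Ralgps2 lay at 12.4 to 22.2 CPM and Bank1, Cd22 and Spib at no more than 1.73 CPM. Of the 15 B cell markers 10 had values, summed to 77.2 to 138 CPM. The others had no row under these names in the deposited counts, where the lowest total of a gene was 10.

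Plasma cell markers were mixed. Xbp1, a transcription factor of secretory cells that other cells also use, lay at 184 to 320 CPM, and Ssr4, Prdm1, Edem2 and Txndc5, which also have roles outside plasma cells, at 68.1 to 224 CPM. Mzb1, a chaperone of antibody-secreting cells, had 0 to 15 counts per library, with 0 in IgG-PBS library 1 and UC7-PBS library 3. Sdc1, a cell surface proteoglycan listed here as a plasma cell marker but not taken as specific to these cells, lay at 0.587 to 5.10 CPM. The 13 markers with values, of 14, summed to 687 to 848 CPM and none passed the edgeR test in any contrast. Averaged over antibodies the log2 difference of Jchain between IFNa and PBS was 0.71 (SE 0.32, edgeR adjusted p = 0.305).

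Genes of antibody assembly were near 0. Dntt, which adds bases at the joints of rearranged segments, Vpreb1 and Vpreb3, of which Vpreb1 encodes a part of the surrogate light chain of B cell precursors, lay at no more than 0.549 CPM in any library. Bcl6, a regulator of germinal centre B cells that T cells also express, lay at 19.1 to 40.4 CPM. Of the 10 genes in this list 5 had values and 2 were tested, and neither passed in any contrast. Among receptors and transporters of antibodies, Fcer1g, a signalling chain shared by Fc receptors and also used by innate-like T cells, lay at 664 to 2560 CPM. Pigr, the polymeric immunoglobulin receptor, lay at 3.03 to 27.1 CPM. Fcgr1, with 0 to 21 counts per library, was the 1 of 8 tested that rose with IFNa averaged over antibodies, by 3.02 on the log2 scale (SE 0.63, edgeR adjusted p = 0.0189).

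The genes whose log2 level was most like that of Ighm over the 13 libraries were Selenbp1 (Pearson r = 0.879), Amacr, Tmem109, Btbd19, Evl, Abitram, Osgin1, Rilpl1, Idh2 and Pacs2 (0.761), among 11564 genes whose mean log2 CPM reached 1. No marker of B cells or plasma cells was among these 10, and Jchain ranked 3493 by that measure. For Igha, taken as a reference after the data were seen, the most like were Gm31597 (0.94), Ifi27, Psme1, Nudt18, H2-T23, Cd8a, Cd27, Isg15, Bst2 and Cers4 (0.89). Ifi27, Isg15 and Bst2 are interferon-induced genes, and these likenesses span the PBS and IFNa libraries. For Igkc, also taken later, Ly6a (0.884), Aph1a, Spsb3 and Jchain (0.832) came first. All values come from the same libraries and share their depth and scaling.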

How the data were processed

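Per the labels' protocols, RNA of 13 samples was purified with RNeasy reagents and libraries were built by SMART-Seq HT. STAR 2.7.8a, Partek, DESeq2 and mm39 appear in the submitters' processing notes, without roles; the strand setting and the treatment of reads that fit several genes are not given in the sources used here, so antisense reads cannot be told apart. The authors deposited estimated counts per gene, unscaled, of which 38.0% were not whole, and a signal per gene, which holds normalized counts as deposited by the authors and covered 21 members; it served only for an alternative. Groups came from sample titles.

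Estimated counts were rounded. Genes were kept with filterByExpr by group (minimum count 10), leaving 15835, and scaled by TMM. One edgeR 4.0.16 quasi-likelihood model (R 4.3.3, robust, 1 coefficient per group, all 13 libraries) was tested two-sided on the whole table, with Benjamini-Hochberg adjustment over all genes tested and a threshold of 0.05; DESeq2 1.42.0 was an alternative. The procedure was tested on simulated data. SE is the log2 difference divided by the square root of F, and a 95% interval comes from that SE. Correlations used log2 CPM with a prior count of 2, and permutation tests with 100000 resamples at 13 libraries and exact at 6 or 7. Exon lengths and shared stretches of 50 bases came from GENCODE M21 (GRCm38), in which all 111 members matched by identifier; no coordinates were converted. Shares have Clopper-Pearson intervals.

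Named were every constant gene, the 6 heavy, 6 kappa and 3 lambda segments of highest mean CPM, the top heavy and kappa segment of each library, members past the threshold, up to 6 genes per marker list, and the 10 genes most like Ighm. The members and lists were chosen with earlier results of these data known. The averaged contrasts, and the omission of 3 libraries together, were added after the data were seen. Alternatives were DESeq2, other scalings and filters, the replicate number as a block, fits of the compared groups only, and each library left out.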

Additional observations from a re-analysis of the deposited data

Results flagged for a closer look

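Only IgG-IFNa, with 4 libraries, was large enough for a check of single libraries that stand apart, which compares the gap to the nearest library with the range of the group. Of 32 levels checked (constant genes, named segments, Jchain and sums), 8 had 1 such library. Chance flags about 1 in 20 groups, but that rate is no comparison here: the segments were picked for high means, which single libraries can supply, and Iglc2 is part of the summed lambda constant genes.

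In IgG-IFNa library 3, Iglc2 reached 8.84 CPM against 0.237 to 0.804 CPM in the other 3 libraries, Iglv3 reached 4.90 CPM against 0, Ighv9-3 reached 5.65 CPM against at most 0.0371, Ighv3-6 reached 2.09 CPM against at most 0.0396, and the summed lambda constant genes reached 9.91 CPM against at most 2.22. In IgG-IFNa library 4, Ighv14-2 reached 3.29 CPM against at most 0.158 and Igkv1-110 reached 2.91 CPM against at most 0.111. In IgG-IFNa library 2, Igkv14-111 reached 3.78 CPM against at most 1.03.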

How the results depend on the processing

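After IgG, the count of members called with IFNa was 0 and became 2 (Igha and Ighv8-8) without UC7-IFNa library 2 and IgG-IFNa libraries 3 and 4, 1 in a fit of the compared groups only and 1 with DESeq2, and 0 to 1 with 1 library left out (1, Igha, without UC7-IFNa library 2 or 3). After UC7-13D5 it was 0 and became 1 without those 3 libraries and 2 with DESeq2, and 0 to 1 with 1 library left out (1, Igha, without UC7-IFNa library 3). For UC7-13D5 against IgG with IFNa it was 1 and became 0 without IgG-IFNa libraries 3 and 4, 0 without the 3 libraries, 0 in the fit of the compared groups and 2 with DESeq2, and 0 to 1 with 1 library left out. The averaged IFNa count of 1 became 2 with DESeq2 and 1 to 2 with 1 library left out (2 without UC7-IFNa library 1); the averaged antibody count of 1 became 0 without IgG-IFNa libraries 3 and 4 and 2 with DESeq2, and 1 to 3 with 1 library left out (3 without UC7-IFNa library 1). The counts for UC7-13D5 against IgG with PBS and for the interaction were 0 under every alternative run. The cause of these changes was not tested.

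Igha with IFNa kept its direction in all alternatives: 0.82 to 0.99 after IgG (adjusted p 0.0006 to 0.577), 0.62 to 1.28 after UC7-13D5 (0.00389 to 0.702), and 0.73 to 1.09 averaged, where it passed in 20 of 20 (1.36e-06 to 0.0328). Ighd was -1.85 to -1.23 for UC7-13D5 against IgG with IFNa, past the threshold in 8 of 21 (5.53e-06 to 0.582), and -1.42 to -1.07 averaged, past it in 18 of 20 (3.24e-07 to 0.0554).

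Libraries with the same replicate number did not deviate together (r of -0.235 to 0.135, median -0.04, over 18 pairs; -0.214 to 0.232 for other numbers). With the replicate number as a block, 0 members were called for UC7-13D5 against IgG with IFNa (Ighd -1.45, adjusted p = 0.313) and 0 in the averaged antibody contrast (Ighd -1.17, adjusted p = 0.0554).

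The mean summed level of 539 CPM was 272 CPM without Ighm. The mean number of variable segments detected per library moved to 28.6 at a minimum of 3 counts and 8.15 at 30. Most segments have under 100 counts per library, so for an unread segment absence and a level too low to detect cannot be told apart.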
